A study of Mus musculus with 57 samples.

Results

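The mitochondrial genome of the mouse carries 37 genes, and all 37 are rows of both count tables of this study: 13 encode proteins, 2 encode ribosomal RNA and 22 encode transfer RNA. They were taken as the genes placed on the mitochondrial chromosome in the table of the sex experiment, which lists 50565 genes, and as the symbols starting with mt- in the table of the LPS experiment, which lists 53278 genes. No measured value was used to choose them. RNA was sequenced from CD11b-positive brain cells, described by the submitters as microglia, of adult mice. WT animals are wild-type and KO animals are littermates lacking P2RY12, a purinergic receptor that resting microglia carry at high level. Strain, age in weeks and the kind of Cre or deletion allele are not given in the sources used here.

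In the sex experiment there are 9 males (4 WT, 5 KO) and 9 females (4 WT, 5 KO), with no treatment among their characteristics. The LPS experiment has 8 libraries of WT ns, 9 of WT LPS, 8 of KO ns and 8 of KO LPS. Their library names carry block numbers 1 to 8. Blocks 1 to 4 were taken here as library set 1 and blocks 5 to 8 as library set 2. Each of these 2 sets holds every group (replicates 1 to 4 are set 1). LPS is lipopolysaccharide from bacterial cell walls, injected into the peritoneum at 1 mg/kg. The label ns is not defined in the sources used here, nor is the time between injection and collection, and no sex is given for these libraries. The 4 WT libraries of library number 2 are shown apart throughout. In them P2ry12 and the LPS-induced gene Saa3 went against the treatment label: WT ns 1 had 482 CPM of P2ry12 and 1783 CPM of Saa3, whereas WT LPS 1 had 4468 and 1.59 CPM (CPM are counts scaled to a common library total). WT LPS 8 and WT LPS 9 were nearly identical and were counted as 1 sample. Nothing in the labels says that the samples of the LPS experiment come from separate animals, so its p-values measure the spread between these libraries, which may be technical.

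Mitochondrial DNA is transcribed from both strands into long precursors that cover most of the circle, and the transfer RNAs are cut out so that the messenger and ribosomal RNAs between them are released. The messages encode core subunits of respiratory complexes I, III and IV and of the ATP synthase (complex V), while all other subunits come from nuclear genes and are imported. Most of the messages receive a short poly(A) tail, whereas mt-Nd6, the single message of the light strand, and the mature transfer RNAs do not carry one of that kind. Microglia that respond to LPS are known to shift their energy metabolism from respiration towards glycolysis.

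Libraries held 58.54 to 318.5 M counts in the sex experiment and 15.91 to 168.4 M in the LPS experiment (M, mega), so the 95% Wilson interval of a mitochondrial share reached at most 0.013 percentage points to either side. That interval covers counting error only. P2ry12 lay at 3006 to 5927 CPM in the WT animals of the sex experiment and at 309.2 to 526.2 CPM in the KO animals; it fell by 3.42 on the log2 scale (edgeR's quasi-likelihood test, adjusted p = 4.52e-13). The summed CPM of 14 microglia markers was between 31990 and 53440 in every animal. Among WT animals, male WT 5 and female WT 2 carried far more of 11 neutrophil markers (52220 and 31660 CPM) than the other animals of the sex experiment, which had 1506 to 8957 CPM. No marker of either list was at 0 throughout. The submitters' notes name the build GRCm39, and positions below are those of GENCODE M21 on GRCm38, the build of the reference used.

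Before levels are compared, 1 stretch of the mitochondrial genome needs to be set apart, because the nuclear genome holds an almost perfect copy of it. Copies on chromosome 1 matched the stretch chrM:6390-11042, which is 4653 bases long and covers the end of mt-Co1, 11 whole genes (6 of them messages, 5 transfer RNAs) and the start of mt-Nd4. The 7 annotated pseudogenes lie on the minus strand between 24611535 and 24616197 of chromosome 1. Over 4137 aligned bases they differed from their mitochondrial counterparts at 1 base, and identity ranged from 99.79% to 100%. The matched pairs are mt-Co1 with Gm29216, mt-Co2 with Gm28661, mt-Atp6 with Gm10925, mt-Co3 with Gm28437, mt-Nd3 with Gm28438, mt-Nd4l with Gm10222 and mt-Nd4 with Gm28439. The following sequences show the left edge of the copy inside mt-Co1 and the start of mt-Co2, each 5′ to 3′ on the strand of the gene, with capitals where the mitochondrial gene and its pseudogene differ.
mt-Co1 (chrM:6381-6440, plus strand): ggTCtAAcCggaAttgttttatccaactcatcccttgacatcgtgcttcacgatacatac
Gm29216 (chr1:24616138-24616197, minus strand): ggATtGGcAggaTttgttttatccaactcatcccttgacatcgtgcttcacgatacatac
mt-Co2 (chrM:7013-7072, plus strand): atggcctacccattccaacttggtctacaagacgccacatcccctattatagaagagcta
Gm28661 (chr1:24615506-24615565, minus strand): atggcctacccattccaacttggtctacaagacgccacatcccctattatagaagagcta

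Counted from the 5′ end of mt-Co1, with the mitochondrial base first, the differences are T1056A, C1057T, A1059G, A1060G, C1062A and A1066T. The alignment starts at base 1063, so that 5 of these 6 lie before the copy and A1066T is the single mismatch inside it. The mt-Co2 pair has no capital: a read that lies wholly inside such a run fits both places. How reads that fit several places were treated is not given in the sources used here.

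The messages inside the copied stretch were measured far below the messages outside it in both tables. On the scale of CPM per kb of gene length, which allows levels of different genes to be compared, mt-Co1 was highest in the sex experiment with a median of 2683 over the 18 animals, and mt-Co2, which encodes the next subunit of the same complex, had 59.7. The 6 messages inside the stretch had medians from 8.45 (mt-Nd3) to 72.8 (mt-Atp8). The 7 messages outside it had medians from 722 (mt-Nd4, of which only the start is copied) to 2683. In the LPS experiment the gap was wider: mt-Co1 had a median of 3332 CPM per kb and mt-Co2 0.865, and mt-Co2 received 5 to 119 counts in a library in which mt-Co1 received 71134 to 591863. The 7 pseudogenes were as low, with medians of 2 to 33 counts over the libraries of the LPS experiment. In the sex experiment Gm10925 had a median of 3923.5 counts beside 4102 for mt-Atp6. There Gm10222 had a median of 1141 counts beside 807.5 for mt-Nd4l, and the other pseudogenes are not listed.

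**Figure D1:**
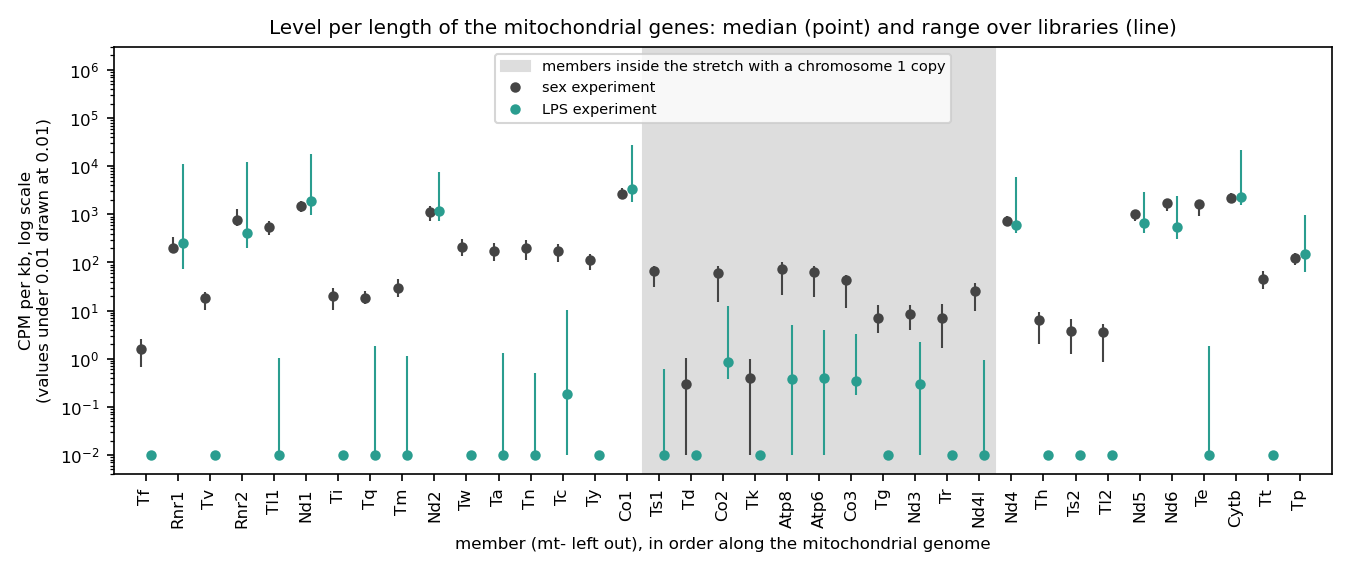
CPM per kb (log axis) of each mitochondrial gene in order along the genome; points are medians and lines the range over the 18 animals of the sex experiment (dark) and the 33 libraries of the LPS experiment (green), and the shaded genes lie inside the stretch with a copy on chromosome 1. Values under 0.01 are drawn at 0.01; messages inside the stretch have medians of 8.45 to 72.8 in the sex experiment and at most 0.865 in the LPS experiment, against 722 to 2683 for the other messages of the sex experiment.

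Within the sex experiment, the share of mitochondrial counts that fell into the copied stretch separated the animals by whether the labels list a repeat library of the animal. In the 12 animals with no repeat library it was 1.00% to 1.18%, and in the 6 with one it was 0.355% to 0.417%. The level of mt-Co2 shows this: the 4 WT males 1, 3, 4 and 5 had 13.4, 34.6, 38.1 and 44.9 CPM, and male WT 1 is the single male with a repeat library. The 4 WT females 1, 2, 3 and 5 had 41.4, 40.3, 10.6 and 10.6 CPM, and the last 2 have a repeat library. The rarest genes of the stretch did not all follow this pattern: mt-Tr, at 0.490 CPM, was highest among the WT males in male WT 1. The 6 repeat libraries fall on 1 male WT, 2 female WT and 3 female KO animals. In the LPS experiment the stretch took 0.00535% to 0.0154% of the mitochondrial counts.

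Outside the copied stretch the order of levels was much alike in the tables, without a test. In the sex experiment mt-Co1 (complex IV) was followed by mt-Cytb (complex III) with a median of 2170 CPM per kb, mt-Nd6 with 1729, the transfer RNA mt-Te with 1659 and mt-Nd1 (complex I) with 1512. In the LPS experiment mt-Co1 was followed by mt-Cytb with 2252, mt-Nd1 with 1902 and mt-Nd2 with 1151, and mt-Nd6 had 543. The ranges over libraries of mt-Co1 and mt-Cytb overlapped in both tables. The tables differed most in the light-strand message and the transfer RNAs. The gene mt-Nd6 took 5.12% to 6.40% of mitochondrial counts in the sex experiment and 0.776% to 2.32% in the LPS experiment, and the transfer RNAs together took 1.24% to 1.79% and 0.0515% to 0.0959%. In the LPS experiment 13 of 22 transfer RNAs had no count in any library and 20 of 22 never had more than 5, the exceptions being mt-Tp and mt-Tc. Per the labels both experiments used poly(A) selection, although every library also carries the batch label Total RNA, and the strand setting of the counting is not given. Without strand, reads from mt-Nd6 or mt-Te cannot be told apart from reads of the heavy-strand precursor across the same bases. The 2 ribosomal genes, mt-Rnr1 and mt-Rnr2, took 7.75% to 12.6% of mitochondrial counts in the sex experiment and 3.48% to 32.4% in the LPS experiment.

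The first comparison is KO against WT in the sex experiment. Mitochondrial genes made up a larger share of all counts in every KO animal than in any WT animal of the same sex. In the WT males 1, 3, 4 and 5 the share was 1.34%, 1.26%, 1.23% and 1.20%, and in the KO males 1 to 5 it was 1.63%, 1.71%, 1.66%, 1.54% and 1.59%. In the WT females 1, 2, 3 and 5 it was 1.47%, 1.21%, 1.22% and 1.31%, and in the KO females 1 to 5 it was 1.79%, 1.498%, 1.499%, 1.89% and 1.88%. The difference of the means was 0.367 percentage points in males, where the SD between animals pooled over both groups was 0.0626, and 0.410 points in females, where it was 0.169. In bulk RNA, a different number of cells of a type and a different amount of RNA per cell cannot be told apart.

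**Figure D2:**
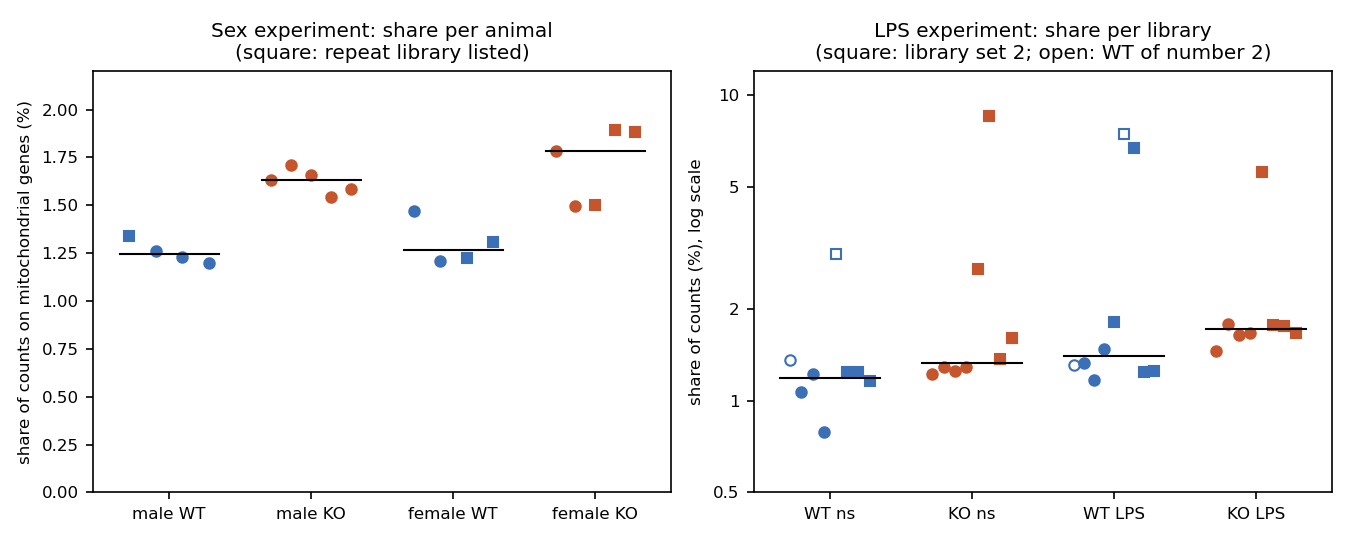
Share of all counts on the 37 mitochondrial genes per animal of the sex experiment (left, %) and per library of the LPS experiment (right, %, log axis); black lines are group medians without the libraries shown apart, squares mark animals with a repeat library (left) or library set 2 (right), and open symbols the WT libraries of number 2. On the left the KO animals lie at 1.498% to 1.89% and the WT animals at 1.20% to 1.47%, and on the right the libraries above 2% are all squares.

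The difference had the same direction within the subsets that can be compared. Among animals without a repeat library the mean share was 1.63% in 5 KO and 1.23% in 3 WT males, and 1.64% in 2 KO and 1.34% in 2 WT females. Among females with a repeat library it was 1.76% in 3 KO and 1.27% in 2 WT animals. The lowest shares of both WT groups were those of male WT 5 and female WT 2, the animals with the high neutrophil sums, and without them the difference was 0.347 points in males and 0.378 in females. The summed level of 7 astrocyte markers also moved with genotype in males, from 162 to 249 CPM in WT and from 275 to 353 CPM in KO animals, and that of 7 endothelial markers was 60.5 to 65.5 CPM in WT and 65.1 to 77.0 CPM in KO males. In females the astrocyte sums overlapped, at 163 to 351 CPM in WT and 237 to 361 CPM in KO animals, and so did the endothelial sums, at 61.6 to 68.2 and 65.4 to 83.9 CPM. The sums of 8 monocyte markers were 277 to 5089 CPM in WT and 302 to 590 CPM in KO males, and 166 to 2912 CPM in WT and 321 to 920 CPM in KO females, the highest being male WT 5 and female WT 2. Averaged over sexes, all 8 monocyte markers (median -1.03) and all 11 neutrophil markers (median -1.88) had log2 fold changes below 0, and 0 of either list were called. None of these markers was at 0 in all animals, and the part of other cells in the mitochondrial difference was not tested.

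Gene by gene, levels are given in CPM after TMM scaling, and 35 of the 37 genes passed the filter on low counts in the sex experiment; mt-Td and mt-Tk, with at most 11 and 14 counts in an animal, did not. Averaged over the sexes, 12 of these 35 genes rose in KO animals at an adjusted p under 0.05 by edgeR's quasi-likelihood test, and none fell. Of all 31709 genes tested, 0.432% were called and 0.419% were called higher. All 35 mitochondrial fold changes were above 0, with a median of 0.35 on the log2 scale against -0.01 over all genes. The 35 genes share precursors and libraries, so they are not independent.

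In complex I, which takes electrons from NADH, 5 of 7 mitochondrial messages rose. The subunit mt-Nd4 (chrM:10167-11544, plus strand) had 962, 925, 798 and 890 CPM in WT males 1, 3, 4 and 5, and 1199, 1229, 1227, 1041 and 1015 CPM in KO males 1 to 5. In WT females 1, 2, 3 and 5 it had 900, 835, 844 and 846 CPM, and in KO females 1 to 5 it had 1227, 1069, 973, 1181 and 1282 CPM. Every KO animal was above every WT animal, also across the sexes. The fold change of mt-Nd4 was 0.39 ± 0.06 on the log2 scale (± is the standard error, SE, of a fold change throughout; adjusted p = 0.00866). The other 4 that rose were mt-Nd1 by 0.35 ± 0.07 (adjusted p = 0.0226), mt-Nd2 by 0.41 ± 0.08 (0.0255), mt-Nd5 by 0.36 ± 0.07 (0.0275) and mt-Nd6 by 0.39 ± 0.08 (0.0275). The subunits inside the copied stretch were not called, mt-Nd3 at 0.40 ± 0.17 (adjusted p = 0.518) and mt-Nd4l at 0.51 ± 0.26 (0.584), with larger errors at fold changes of like size.

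The called complex I messages had these levels as means ± SD between animals, first for males (4 WT, then 5 KO) and then for females (4 WT, then 5 KO). The subunit mt-Nd2 had 980.9 ± 106.2, 1294 ± 75.9, 966 ± 149.4 and 1297 ± 185.5 CPM. The subunit mt-Nd5, which forms the far end of the membrane arm, had 1611 ± 194.3, 2065 ± 105.5, 1613 ± 183.5 and 2080 ± 226.4 CPM. In both genes male KO animals lay above all male WT animals, and females overlapped. The light-strand message mt-Nd6 had 886, 750, 643 and 776 CPM in WT males 1, 3, 4 and 5 and 1041, 1020, 1032, 921 and 960 CPM in KO males 1 to 5, without overlap. It had 857, 611, 714 and 794 CPM in WT females 1, 2, 3 and 5 and 972, 821, 909, 1092 and 1101 CPM in KO females 1 to 5, where KO female 2 fell below WT female 1.

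The mitochondrial message of complex III, mt-Cytb (chrM:14145-15288, plus strand), encodes cytochrome b, which passes electrons on from coenzyme Q. It had 2480, 2200, 2104 and 2109 CPM in WT males 1, 3, 4 and 5, and 2949, 3082, 2826, 2608 and 2484 CPM in KO males 1 to 5. The female WT animals 1, 2, 3 and 5 had 2230, 1934, 2039 and 2161 CPM, and the female KO animals 1 to 5 had 2928, 2715, 2452, 3180 and 3181 CPM. Groups did not overlap within either sex, and in males the lowest KO value, 2484, lay just above the highest WT value, 2480. The message rose by 0.40 ± 0.07 (adjusted p = 0.00889).

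Complex IV reduces oxygen, and its largest subunit mt-Co1 (chrM:5328-6872, plus strand) was the most abundant mitochondrial message. It had 3893, 3688, 3723 and 4256 CPM in WT males 1, 3, 4 and 5 and 4753, 4834, 4363, 4304 and 4036 CPM in KO males 1 to 5, and these groups overlapped. In WT females 1, 2, 3 and 5 it had 3673, 3672, 3402 and 3632 CPM, and in KO females 1 to 5 it had 4761, 4513, 3955, 5229 and 5406 CPM, without overlap. It rose by 0.30 ± 0.07 (adjusted p = 0.0496), close to the threshold. Inside the copied stretch, mt-Co2 at 0.34 ± 0.36 (adjusted p = 0.905) and mt-Co3 at 0.37 ± 0.34 (0.881) were not called, and neither were the complex V subunits mt-Atp6 at 0.35 ± 0.31 (0.862) and mt-Atp8 at 0.28 ± 0.31 (0.919). Among the 12 animals without a repeat library the error of mt-Co2 shrank to 0.10 at a fold change of 0.24, and it was not called there either (adjusted p = 0.551).

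The ribosomal RNAs did not pass the test. The large one, mt-Rnr2 (chrM:1094-2675, plus strand), had 916, 892, 906 and 1478 CPM in WT males 1, 3, 4 and 5 and 1316, 1205, 1112, 1143 and 1239 CPM in KO males 1 to 5. It had 1149, 1206, 1023 and 1136 CPM in WT females 1, 2, 3 and 5 and 1248, 1247, 1225, 1810 and 1996 CPM in KO females 1 to 5. Male WT 5, with the high neutrophil sum, held the highest value among males, and the females did not overlap. The fold change of mt-Rnr2 was 0.31 ± 0.11 (adjusted p = 0.443) and that of the small ribosomal RNA, mt-Rnr1, was 0.19 ± 0.13 (0.769).

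Among the transfer RNA genes 5 of the 20 tested rose. They were mt-Tl1, for a leucine transfer RNA, by 0.45 ± 0.07 (adjusted p = 0.0056), mt-Tw (tryptophan) by 0.52 ± 0.09 (0.00866), mt-Ty (tyrosine) by 0.55 ± 0.10 (0.0133), mt-Tt (threonine) by 0.63 ± 0.12 (0.0222) and mt-Ta (alanine) by 0.49 ± 0.11 (0.0499). The gene mt-Tl1 had 39.2, 37.8, 34.5 and 30.8 CPM in WT males 1, 3, 4 and 5 and 45.9, 53.8, 49.1, 49.8 and 42.3 CPM in KO males 1 to 5. It had 35.1, 28.5, 34.4 and 34.8 CPM in WT females 1, 2, 3 and 5 and 40.9, 46.8, 40.4, 50.9 and 49.3 CPM in KO females 1 to 5. All KO animals were above all WT animals of both sexes. The gene mt-Tl1 (chrM:2676-2750) lies between mt-Rnr2 and mt-Nd1 with no base between them, and counts of a transfer RNA, of its precursor and of reads reaching in from a neighbour cannot be told apart. The most abundant transfer RNA gene, mt-Te, opposite the heavy-strand precursor, was at 0.43 ± 0.11 (adjusted p = 0.091). The next most abundant of those not called were mt-Tn (asparagine), with 7.86 to 18.4 CPM in WT and 10.7 to 20.4 CPM in KO animals and a fold change of 0.44 ± 0.14 (adjusted p = 0.301), and mt-Tc (cysteine), with 6.72 to 14.2 CPM in WT and 8.52 to 16.0 CPM in KO animals and 0.45 ± 0.13 (0.227).

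**Figure D3:**
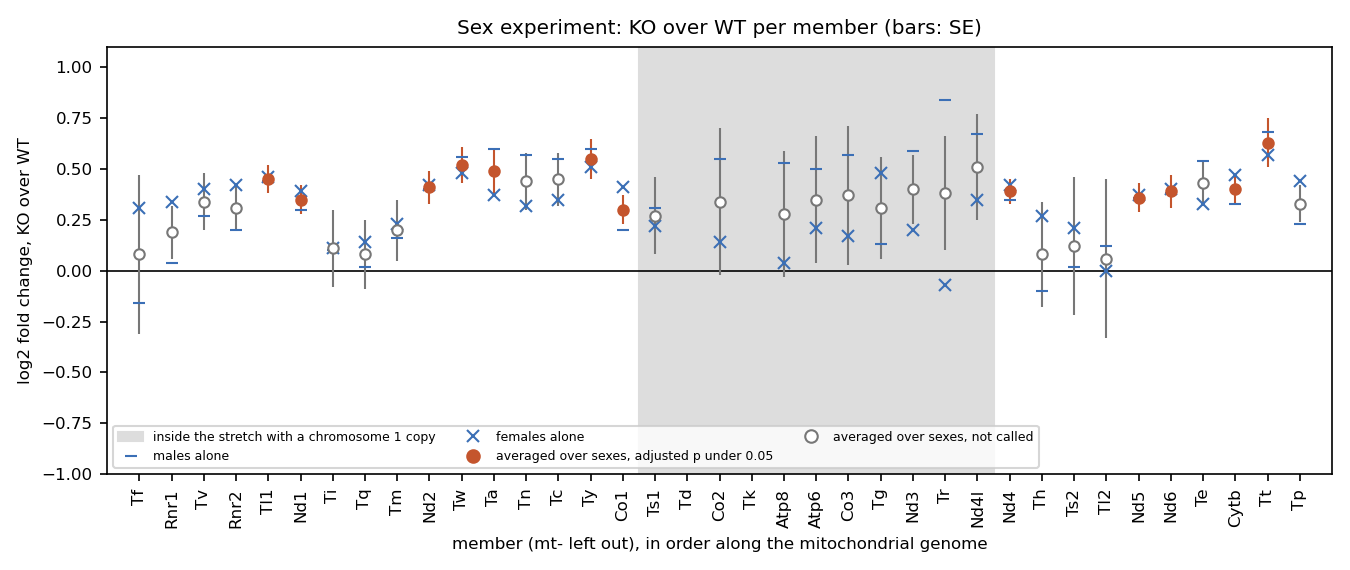
Log2 fold change of KO over WT for each of the 35 mitochondrial genes tested in the sex experiment, in order along the genome, for males (dashes), females (crosses) and the average of both (circles, filled where the adjusted p is under 0.05, with bars of 1 SE). The averaged values are all above 0 with a median of 0.35, and the bars are longest for the genes inside the copied stretch and for the rarest transfer RNAs.

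Within a single sex no mitochondrial gene was called by edgeR's quasi-likelihood test, although fold changes were of the same size. In males 0 of 35 were called (0.00946% of all genes were), 33 were above 0 with a median of 0.36, 16 had an unadjusted p under 0.05, and DESeq2 called 3. In females 0 of 35 were called (0.164% of all genes), 33 were above 0 with a median of 0.35, 15 had an unadjusted p under 0.05, and DESeq2 called 8. The shares of all genes in brackets are of edgeR calls. For the counts at an unadjusted p and by DESeq2 the like share of all genes is not given here, so no excess is read from them. Counted by animals, 17 of 35 genes were higher in every KO male than in every WT male, which held for 0.997% of all genes tested. The same was true of 8 of 35 in females, against 1.70% of all genes tested: mt-Rnr2, mt-Tl1, mt-Nd1, mt-Tw, mt-Co1, mt-Nd4, mt-Cytb and mt-Tt. As a percentage of the mitochondrial counts alone, no gene was higher in all KO than in all WT animals in either sex, and 1 rare transfer RNA, mt-Th, was lower in all KO males.

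A difference between sexes was not detectable. The sex-by-genotype interaction called 0 of 35 mitochondrial genes and 0% of all genes by edgeR's quasi-likelihood test, with 0 of the 35 and 879 of all genes at an unadjusted p under 0.05, and DESeq2 called 0 genes in all. Its largest value among the messages by size was -0.49 ± 0.61 for mt-Atp8, inside the copied stretch, and outside it 0.21 ± 0.13 for mt-Co1. Between female and male WT animals 0 of 35 were called by edgeR's quasi-likelihood test against 0.0725% of all genes, 0 had an unadjusted p under 0.05, DESeq2 called 0, and the median log2 fold change was -0.09 (0.01 with column totals as scaling). The mean shares of 1.30% in female and 1.26% in male WT animals differed by 0.0425 points, less than the pooled SD of 0.0946.

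The count of 12 depended on single animals. Without any 1 of male WT 3, male WT 4, male KO 1, male KO 2, male KO 3, female WT 3, female KO 4 or female KO 5 it was 6, 5, 6, 5, 7, 5, 5 and 5 in that order, and no gene was called among the 12 animals without a repeat library, where 7 genes in all were called. There 30 of 36 mitochondrial fold changes were above 0, with a median of 0.27. The message mt-Nd4 had 0.41 ± 0.09 (adjusted p = 0.196) and mt-Cytb 0.42 ± 0.09 (0.185), while mt-Rnr2 had 0.12 ± 0.12, mt-Rnr1 0.00 ± 0.14, and the rare transfer RNA genes mt-Ti -0.22 ± 0.23 and mt-Tl2 -0.65 ± 0.47.

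Nuclear genes that work with the mitochondrial genome were, but for 1, not called. None of the tested genes changed with genotype, averaged over sexes, in the lists for transcription and maintenance of mitochondrial DNA (24 tested), mitochondrial RNA processing (32), the mitochondrial ribosome (79), nuclear subunits of complexes I (37), II (4), III (9) and V (15), biogenesis regulators (13) and mitophagy (11). Their median log2 fold changes lay between -0.02 and 0.04, against 0.35 for the mitochondrial genes and -0.01 for all genes. The gene of lowest p in each list was not called either: Sqstm1, an autophagy receptor, at 0.15 ± 0.06 (adjusted p = 0.468), Ndufs8 of complex I at 0.13 ± 0.05 (0.493), the ribosomal protein gene Mrpl52 at 0.18 ± 0.07 (0.499), Top1mt, a mitochondrial topoisomerase, at 0.22 ± 0.10 (0.539), and Fastkd2, an RNA-binding protein of the mitochondrial matrix, at 0.18 ± 0.08 (0.552). In the remaining lists it was Atp5l of complex V at -0.16 ± 0.08 (adjusted p = 0.578), the transcription factor Nrf1 at -0.10 ± 0.05 (0.625), Uqcr11 of complex III at 0.13 ± 0.08 (0.704) and Sdha of complex II at 0.05 ± 0.05 (0.858). Of 12 nuclear complex IV genes 1 rose: Cox7a2l, which helps to join complexes III and IV into supercomplexes, by 0.30 ± 0.05 (adjusted p = 0.00679). In complex IV the median over the 12 nuclear genes was -0.15 in males and 0.20 in females, against 0.36 and 0.35 for the mitochondrial genes.

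The second set of comparisons concerns the LPS experiment, where mitochondrial shares spread far more. In WT ns the 6 samples not shown apart had 0.787% to 1.25% with a median of 1.19%, and in WT LPS the 6 samples had 1.17% to 6.74% with a median of 1.40%. In KO ns the 8 libraries had 1.22% to 8.55% with a median of 1.33%, and in KO LPS they had 1.46% to 5.62% with a median of 1.71%. The shares of the libraries shown apart were 1.36% in WT ns 1, 3.03% in WT ns 5, 1.31% in WT LPS 1 and 7.46% in WT LPS 6. All shares above 2% were in library set 2: KO ns 5 (2.69%), KO ns 6 (8.55%), WT LPS 7 (6.74%), KO LPS 5 (5.62%) and, among those shown apart, WT ns 5 and WT LPS 6. The TMM factor, which scales a library for its composition, was 0.732 in KO ns 6, 0.674 in WT LPS 7, 0.803 in WT LPS 6 and 0.910 in KO LPS 5, and 0.967 to 1.12 in every other library of the experiment. The summed level of 15 genes known to respond to tissue dissociation was 115 CPM in KO LPS 5, 141 in KO ns 5, 195 in WT ns 5, 198 in KO ns 6, 344 in WT LPS 6 and 619 in WT LPS 7, and 363 to 962 CPM in the other libraries. The sum of 11 neutrophil markers was highest in its group in WT LPS 7 (16130 CPM) and KO ns 6 (10770), not in KO LPS 5 (5461). WT ns 3 and WT ns 8, with shares below 2%, had 20240 and 18980 CPM. At ns the sums of 7 astrocyte markers were 118.2 to 181.7 CPM in WT libraries not shown apart and 218.5 to 335.1 CPM in KO. Those of 7 endothelial markers were 49.05 to 60.5 and 62.16 to 96.45 CPM. The other cell-type sums overlapped at ns, as did both of these at LPS. The part of these properties in the shares was not tested.

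In library set 1, where no library passed 2%, the shares fell closer together. WT ns 2, 3 and 4 had 1.06%, 1.22% and 0.787%, and KO ns 1 to 4 had 1.22%, 1.29%, 1.25% and 1.29%. WT LPS 2, 3 and 4 had 1.33%, 1.17% and 1.48%, and KO LPS 1 to 4 had 1.46%, 1.79%, 1.64% and 1.67%. KO libraries lay above WT libraries at ns by 0.239 points in the mean, and by 0.315 points at LPS, where the groups overlapped. WT ns 4, the lowest, was also the deepest library of the experiment, with 168.4 M counts, and without it the difference at ns was 0.121 points. At ns the lowest KO library (1.224%, 95% Wilson interval 1.220% to 1.229%) and the highest WT library (1.218%, 1.213% to 1.223%) were not separated by counting error. In set 2 the difference of means between KO and WT was 2.34 points at ns and -0.560 points at LPS, and both sizes depend on the libraries above 2%. The other libraries of set 2 at ns were KO ns 7 and 8 with 1.368% and 1.604%, and WT ns 6 to 8 with 1.244%, 1.245% and 1.159%. At LPS they were KO LPS 6 to 8 with 1.775%, 1.754% and 1.670%, and WT LPS 5, 8 and 9 with 1.812%, 1.243% and 1.246%.

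**Figure D4:**
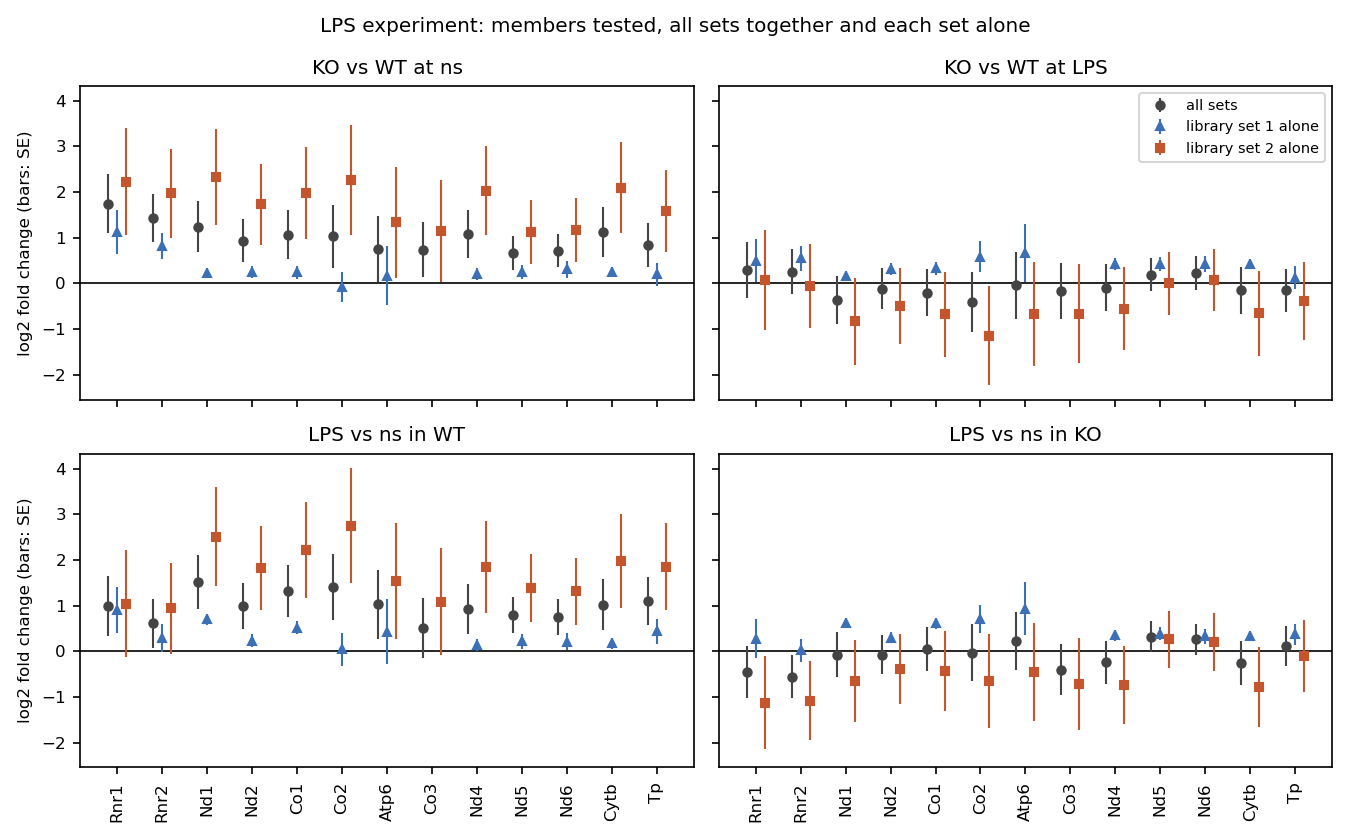
Log2 fold changes of the mitochondrial genes tested in the LPS experiment for 4 comparisons, all sets together and each set alone. Bars are 1 SE; set 1 values lie between -0.08 and 1.13, and set 2 medians run from -0.65 to 1.98.

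In the LPS experiment 13 of the 37 genes passed the filter on low counts: 10 messages, both ribosomal RNAs and mt-Tp. The comparisons of KO with WT and of LPS with ns share their groups, so their values stand side by side and are no support for each other. Between KO and WT at ns 0 of 13 mitochondrial genes were called by edgeR's quasi-likelihood test, against 0.0932% of 16088 genes, with 4 at an unadjusted p under 0.05 and 0 called by DESeq2. DESeq2 gave mt-Nd1 no p-value in any comparison of the LPS experiment, so it could not call this gene. For counts at an unadjusted p and by DESeq2, the like number over all genes is given only for the interaction. All 13 fold changes were above 0 with a median of 1.03, which was 0.24 in set 1 alone, 1.98 in set 2 alone and 0.70 with all libraries as labelled. The largest was that of mt-Rnr1. It had 71.4, 166 and 508 CPM in WT ns and 158, 360 and 3762 CPM in KO ns (lowest, median and highest), with a fold change of 1.75 ± 0.64 (adjusted p = 0.464). These ranges overlapped.

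Some of the other members tested are given here, with the 4 libraries shown apart left out. Unless called medians, values are lowest, median and highest CPM in WT ns (6 samples), WT LPS (6), KO ns (8) and KO LPS (8). The catalytic subunit of complex IV, mt-Co1, had 2805, 3852 and 4279 in WT ns, 4206, 5422 and 41690 in WT LPS, 3943, 4471 and 42250 in KO ns, and 5477, 6554 and 23010 in KO LPS. The complex III message mt-Cytb had 1762, 2116 and 2268 in WT ns, 1947, 2343 and 19570 in WT LPS, 2186, 2659 and 25250 in KO ns, and 2648, 3082 and 10900 in KO LPS. Medians were thus lowest in WT ns and highest in KO LPS for both, while the highest values came from WT LPS 7, KO ns 6 and KO LPS 5. The large ribosomal RNA mt-Rnr2 had 320, 561 and 1190 in WT ns, 344, 626 and 2758 in WT LPS, 622, 994 and 7915 in KO ns, and 577, 633 and 3760 in KO LPS. Its median was highest in KO ns, and all 4 ranges overlapped. The light-strand message mt-Nd6 had 161, 229 and 245 in WT ns, 168.2, 269 and 1069 in WT LPS, 212, 296 and 906 in KO ns, and 282, 327 and 1279 in KO LPS. The proline transfer RNA gene mt-Tp, the only transfer RNA gene that passed the filter, had medians of 8.16, 10.8, 9.17 and 11.6 in that order of groups, and mt-Co2 inside the copied stretch had medians of 0.533, 0.560, 0.590 and 0.792. Among the libraries shown apart, mt-Rnr2 reached 19310 CPM in WT LPS 6, and mt-Co1 had 5379 in WT ns 1, 11360 in WT ns 5, 4675 in WT LPS 1 and 24870 in WT LPS 6.

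Between KO and WT at LPS 0 of 13 were called by edgeR's quasi-likelihood test, against 0.0746% of all genes, with 0 at an unadjusted p under 0.05 and 0 called by DESeq2. The median fold change was -0.12 (0.03 with column totals as scaling), and here the sets went opposite ways: it was 0.42 in set 1 with 12 of 12 genes above 0, and -0.60 in set 2. In set 1 the lowest p was that of mt-Cytb. It had 2232, 1947 and 2454 CPM in WT LPS 2, 3 and 4 and 2648, 3198, 2883 and 3013 CPM in KO LPS 1 to 4 on the scale of the whole experiment. These groups did not overlap, but the fold change of 0.42 ± 0.11 was not called (adjusted p = 0.148).

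LPS against ns in WT libraries called 0 of 13 mitochondrial genes by edgeR's quasi-likelihood test, while 30.7% of all genes were called. Of the 13, 3 had an unadjusted p under 0.05, and DESeq2 called 1, mt-Co1, but gave mt-Nd1 no p-value. By edgeR the nearest to the threshold was the complex I message mt-Nd1 (chrM:2751-3707, plus strand). Its level was 928, 1156 and 1241 CPM in WT ns and 1606, 1846 and 15070 CPM in WT LPS (lowest, median and highest). Every WT LPS sample was above every WT ns sample, which held for 1 of the 13 genes, mt-Nd1, and for 10.5% of all genes. Its fold change was 1.52 ± 0.59 (adjusted p = 0.0511), with WT LPS 7 at 15070 CPM and the other 5 WT LPS samples at 1606 to 2132. In set 1 alone, where 12 mitochondrial genes were tested, 2 rose with LPS against 42.6% of all genes called and 21.1% called higher. They were mt-Nd1 by 0.70 ± 0.12 (adjusted p = 0.000264) and mt-Co1 by 0.52 ± 0.15 (0.013).

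In KO libraries LPS against ns called 0 of 13 by edgeR's quasi-likelihood test and 28.5% of all genes; 0 had an unadjusted p under 0.05 and DESeq2 called 0. The level of mt-Nd1 was 1169, 1405 and 16890 CPM in KO ns and 1779, 2059 and 7042 CPM in KO LPS (lowest, median and highest). The highest KO ns value, that of KO ns 6, exceeded every KO LPS value, while the other 7 KO ns libraries, at 1169 to 2471 CPM, overlapped with KO LPS. The median fold change over the 13 genes was -0.07, and 0.02 with column totals as scaling. In set 1 alone 6 of 12 rose, against 45.3% of all genes called and 23.7% called higher: mt-Nd1 by 0.63 ± 0.10 (adjusted p = 0.000169), mt-Co1 by 0.61 ± 0.13 (0.00162), mt-Cytb by 0.34 ± 0.10 (0.0131), mt-Nd4 by 0.35 ± 0.12 (0.0251), mt-Nd5 by 0.39 ± 0.15 (0.0395) and mt-Nd2 by 0.30 ± 0.12 (0.0497). In set 2 alone 0 of 14 were called and the median was -0.65. These counts in set 1 are read against the large part of all genes called there.

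Whether LPS acted differently in KO and WT was tested by the genotype-by-LPS interaction, which called 0 of 13 mitochondrial genes and 0% of all genes by edgeR's quasi-likelihood test. None of the 13 and 708 of all genes had an unadjusted p under 0.05. DESeq2 called 3 genes in all and 0 of the mitochondrial genes, with no p-value for mt-Nd1. The median was -1.17, with 0.11 in set 1 and -2.19 in set 2.

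The make-up of the mitochondrial counts is given as a description. The ratio of mt-Nd1 to mt-Cytb, which does not depend on the mitochondrial share, was chosen for description after the values were seen. It lay between 0.527 and 0.571 in the 6 WT ns samples and between 0.725 and 0.875 in the 6 WT LPS samples. It was 0.517 to 0.561 in 7 of 8 KO ns libraries and 0.669 in KO ns 6, and 0.627 to 0.709 in 7 of 8 KO LPS libraries and 0.849 in KO LPS 7. In the libraries shown apart it was 0.765 in WT ns 1, 0.760 in WT ns 5, 0.551 in WT LPS 1 and 0.549 in WT LPS 6, so that the ns pair lay in the range of the WT LPS samples and the LPS pair in that of WT ns. In the sex experiment it was 0.527 to 0.616 in all animals. As percentages of mitochondrial counts, 1 of 13 genes was higher (mt-Nd1) and 1 of 13 lower (mt-Nd4) in every WT LPS than in every WT ns sample. In CPM, 10.5% of all genes were higher and 13.7% lower without overlap between these groups. In KO libraries 1 of 13 was higher without overlap, mt-Co1 with 31.1% to 36.2% in KO ns and 37.1% to 40.1% in KO LPS, and in CPM 3.63% of all genes were higher.

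**Figure D5:**
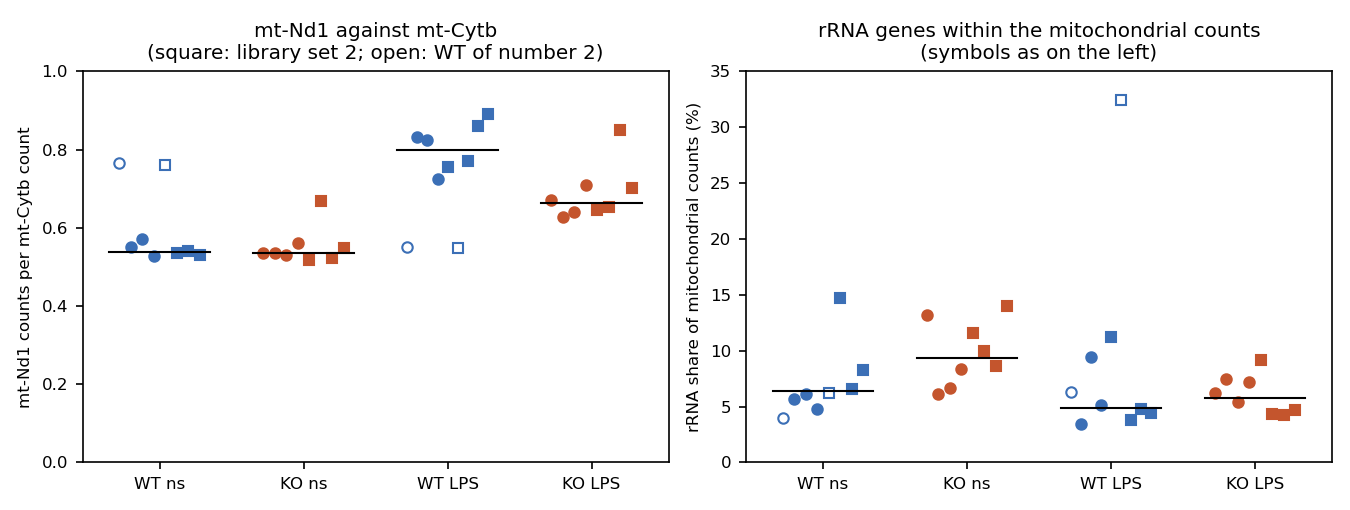
Make-up of the mitochondrial counts per library of the LPS experiment: mt-Nd1 counts per mt-Cytb count (left) and the ribosomal RNA share of mitochondrial counts (right, %); black lines are group medians without the libraries shown apart, squares are library set 2 and open symbols the WT libraries of number 2. The ratio is 0.527 to 0.571 in WT ns and 0.725 to 0.875 in WT LPS with WT LPS 8 and 9 averaged, and the highest ribosomal share is 32.4% in WT LPS 6.

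Nuclear genes of the same organelle changed with LPS. In WT libraries LPS raised 10 of 12 nuclear complex IV genes, 10 of 15 of complex V, 5 of 9 of complex III, 14 of 36 of complex I and 1 of 4 of complex II, and lowered none of them, with 30.7% of all genes called in either direction. Examples are Cox5a at 1.26 ± 0.30 (adjusted p = 0.002), the ATP synthase subunits Atp5g3 at 1.27 ± 0.26 (0.00048) and Atp5b at 1.25 ± 0.26 (0.000704), and Ndufa10 at 0.55 ± 0.12 (0.000916). Of the mitochondrial ribosome 36 of 79 rose, Mrps18b by 1.42 ± 0.24 (adjusted p = 5.85e-05), and of mitochondrial RNA processing 15 of 32, among them Pnpt1, a polynucleotide phosphorylase of the organelle, by 1.36 ± 0.28 (0.000601). Their medians were 1.26 for complex IV, 0.98 for complexes III and V, 0.78 for complex I, 0.69 for the ribosome and 0.57 for RNA processing, beside 0.99 for the 13 mitochondrial genes (0.26 in library set 1 alone and 1.84 in set 2 alone) and 0.03 for all genes. Further called genes were Cox5b (1.26 ± 0.36), Cox4i1 (0.87 ± 0.27), Atp5g1 (1.47 ± 0.32), Cyc1 (0.79 ± 0.19), Uqcrq (1.44 ± 0.37), Uqcr11 (1.45 ± 0.43), Sdhb (1.05 ± 0.29), Ndufa12 (1.90 ± 0.47) and Ndufb8 (1.04 ± 0.32) of the complexes, and Mrpl12 (1.32 ± 0.23), Mrps27 (1.09 ± 0.21), Nsun2 (0.90 ± 0.18) and Mrm3 (1.13 ± 0.24) of the ribosome and RNA processing.

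In KO libraries, where 28.5% of all genes were called in either direction, LPS raised 1 of 12 nuclear complex IV genes (Cox5a by 0.86 ± 0.25, adjusted p = 0.0119) and lowered 1 (Cox7a2l by 0.85 ± 0.32, 0.0449). It raised 4 of 15 of complex V, 2 of 9 of complex III, 2 of 36 of complex I and none of complex II. In the ribosome it raised 11 of 79, and in RNA processing 9 of 32. The 28.5% covers calls in both directions and the part called higher is not given here, so these raised parts are not ranked against it. The called genes of lowest p were Atp5g1 (1.06 ± 0.27), Atp5g3 (0.87 ± 0.22) and Atp5d (0.53 ± 0.14) of complex V, Cyc1 (0.62 ± 0.16) and Uqcrq (0.88 ± 0.32) of complex III, and Ndufa10 (0.58 ± 0.10) and Ndufb7 (0.65 ± 0.20) of complex I. In the ribosome they were Mrpl28 (0.65 ± 0.11), Mrpl2 (0.58 ± 0.12) and Mrps18b (0.91 ± 0.20), and in RNA processing Nsun2 (0.70 ± 0.16), Pus1 (0.84 ± 0.19) and Pnpt1 (0.97 ± 0.24). Of 24 genes that copy and maintain mitochondrial DNA 2 rose and 1 fell in KO libraries, and 0 rose and 1 fell in WT libraries: the ligase Lig3 rose by 0.73 ± 0.17 (adjusted p = 0.00138) and the polymerase Polg by 1.01 ± 0.36 (0.037) in KO libraries, and Mgme1, a nuclease of mitochondrial DNA, fell by 0.60 ± 0.14 in KO (0.00153) and by 0.43 ± 0.16 in WT libraries (0.0401). Of 12 biogenesis regulators 1 rose and 3 fell in KO libraries and 1 rose and 2 fell in WT libraries. The coactivator Ppargc1b rose by 2.00 ± 0.39 in KO (adjusted p = 0.000276) and by 2.01 ± 0.45 in WT libraries (0.0012), while Gabpb1 fell by 0.76 ± 0.18 (0.00163) and by 1.03 ± 0.21 (0.000403), Esrrg fell by 1.76 ± 0.48 in KO (0.00662) and Nrf1 by 0.53 ± 0.15 in WT libraries (0.00917). Of 10 mitophagy genes 1 rose and 3 fell in KO libraries and 1 rose and 2 fell in WT libraries. Phb2, a prohibitin of the inner membrane, rose by 0.67 ± 0.20 in KO (adjusted p = 0.0103) and by 0.70 ± 0.23 in WT libraries (0.0199). Pink1 and Park2 (the gene of Parkin) fell in both, Pink1 by 1.01 ± 0.27 in KO (0.00604) and 1.08 ± 0.32 in WT libraries (0.0107), Park2 by 1.35 ± 0.17 (6.67e-07) and 1.31 ± 0.20 (1.12e-05). Between KO and WT none of the nuclear genes of these 10 lists was called by edgeR's quasi-likelihood test, at ns or at LPS, nor did the interaction call any gene, so the counts in KO and WT libraries are not shown to differ.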

How the data were processed

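The authors deposited raw counts per gene for each experiment, whole numbers that were not normalized. Per the submitters' processing notes, FastQC, STAR 2.6.1, featureCounts of Subread, DESeq2 and the build GRCm39 were used, and settings for strand and for reads with several matches are not given in the sources used here. The sex table names mitochondrial genes without the prefix mt- (ND1, TrnF), and these were paired with the mouse symbols. For 6 animals the labels list a repeat library, which no column names; it was not used here.

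Counts were filtered with filterByExpr, scaled by TMM and tested with edgeR 4.0.16 (R 4.3.3) by the quasi-likelihood F test with robust dispersions, 1 model per experiment. The adjusted p is by Benjamini-Hochberg over all genes tested, with calls under 0.05. The LPS model held 28 samples with library set as a covariate, without the 4 WT libraries of number 2 and with WT LPS 8 and 9 summed (chi-square of 1.86 per degree of freedom, next pair 8.32). Each SE was taken from the F statistic. The share is the percentage of a column's total.

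Named with values are all messages and ribosomal RNAs, called transfer RNAs and the 3 most abundant others, and, for KO against WT averaged over sexes and LPS against ns, from each of 10 nuclear lists up to 3 called genes of lowest p or else the 1 of lowest p. The members, lists and tests were chosen with earlier results of these data known. The script was tested on simulated data. Alternatives were DESeq2 1.42.0, other scalings, no filter, single library sets, all libraries as labelled and a replicate block. In the sex experiment each animal was also left out in turn. In the LPS experiment the fitted libraries with the highest mitochondrial shares were not left out singly, so how far its results rest on each of them was not tested. Fits by repeat library and without male WT 5 and female WT 2 were added after seeing the data.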

Additional observations from a re-analysis of the deposited data

Results flagged for a closer look

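In 40 combinations of a group and a measure, 7 values of 5 samples stood apart from the rest of their group by Dixon's criterion at the 95% level, which chance gives in about 1 of 20. The share of counts on mitochondrial genes was 8.55% in KO ns 6, 6.74% in WT LPS 7 and 5.62% in KO LPS 5. KO ns 6 also stood apart in the ratio of mt-Nd1 to mt-Cytb, at 0.669, and in the mt-Nd6 percentage of mitochondrial counts, at 0.776%. The ratio of mt-Nd1 to mt-Cytb was 0.849 in KO LPS 7, and the ribosomal RNA percentage of mitochondrial counts was 14.7% in WT ns 6.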

How the results depend on the processing

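Counts of called mitochondrial genes stayed within 1.5 times their main value in 182 combinations of a comparison and a setting and moved further in 25. Medians stayed within the spread between samples in 199 and moved further in 8. Except for KO against WT averaged over sexes, every main count was 0, and a 0 again was counted as unmoved. The 182 is therefore no measure of how stable a nonzero count was. In males DESeq2 called 3, and the median was 0.43 with column totals as scaling. In females DESeq2 called 8, column totals 1, no filter 4, the repeat library as a covariate 2 and the fit without male WT 5 and female WT 2 called 3; leaving out 1 animal gave 0 to 4, with 1 without male WT 1 or female KO 1 and 4 without male WT 5 or female KO 3. Averaged over sexes, 0 were called among animals with no repeat library, and leaving out 1 animal gave 5 to 14. Among animals with no repeat library the median was 0.16 in females and -0.17 for the sex-by-genotype interaction. For LPS against ns in WT, DESeq2, column totals, only the groups compared and no set covariate called 1 each and set 1 alone 2, with a median of 1.84 in set 2 alone; in KO, set 1 alone called 6. The median of KO against WT at ns was 0.24 in set 1 and 1.98 in set 2, and that of the genotype-by-LPS interaction was 0.11 in set 1 and -2.19 in set 2. Column totals as scaling moved the median of all genes to -0.11 for LPS against ns in WT and to 0.14 for that interaction. The cause of these shifts was not tested.

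With the replicate number as a block, 8 of 35 were called averaged over sexes (84 of all genes) and 0 within either sex or in any comparison of the LPS experiment. Whether the numbers pair the samples is not given in the sources used here. In the sex experiment, over 8 pairs with 1 number, the mean correlation of deviations was 0.126 with 5 pairs over 0.1. Over 32 other pairs it was -0.03. In the LPS experiment it was 0.200 over 35 pairs with 1 number, with 19 over 0.1, and 0.015 over 257 other pairs. Samples of 1 number were thus more alike on average. With the block the fold change of mt-Co1 between KO and WT at ns was 0.58 ± 0.41, against 1.07 ± 0.54 without it. In the LPS experiment 20 of 22 transfer RNA genes had 5 counts or fewer in every library, also in the deepest, WT ns 4 with 168.4 M counts, and none of these 20 was tested.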

Other observations

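The nuclear genes whose log2 CPM followed the mean of the 13 mitochondrial messages most closely were found as a description, without a test. Over the 18 animals of the sex experiment they were Gm10222 (Pearson r = 0.952) and Gm10925 (0.939), both pseudogenes of the copied stretch, then Gm12411 (0.911), Rps12-ps4 (0.904) and Gm4294 (0.900). Over the 33 libraries of the LPS experiment they were Rps24 (0.990), Rpl7 (0.989), Selenof (0.987), Pomp (0.986) and Sdcbp (0.986). Rps24 had a median of 361 CPM over those libraries and 2400 CPM in KO ns 6, 2469 in WT LPS 7, 1632 in WT LPS 6 and 1189 in KO LPS 5, the libraries with the highest mitochondrial shares. These points share libraries and depth. The mean of the 13 messages includes those inside the copied stretch. In the sex experiment this stretch took a smaller share of mitochondrial counts in every animal with a repeat library than in the others. The part of that split in the correlations was not tested.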
